A study of Danio rerio with 6 samples.

Results

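The peptide hormone genes of enteroendocrine and pancreatic islet cells were examined in dissected guts of germ-free (GF) zebrafish larvae that lack the cytokine gene *il26* and of WT GF larvae. Members were chosen by gene symbol, as rows of the deposited table that carry one of 9 hormone symbols. Of these, 8 had a row among the 15419 gene symbols of the table, namely *gcga*, *gcgb*, *sst2*, *ghrl*, *pyyb*, *penka*, *ins* and *insl5a*. The cholecystokinin gene *ccka* was not analysed here. The first 6 of the 8 had enough counts to be tested, among 11062 genes tested in all.

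Guts were dissected at 5 days post-fertilization (dpf), each replicate pooled 10 to 15 guts, and messenger RNA was sequenced from 3 *il26*-/- GF and 3 WT GF replicates. The *il26*-/- line was made with CRISPR/Cas9 and a pair of guides against the coding sequence, the WT strain was AB, and clutchmate adults of both genotypes were kept in separate tanks to produce the larvae. Both groups were raised from bleached eggs in sterile medium with ampicillin, kanamycin, ceftazidime and chloramphenicol, so every library comes from germ-free larvae and no conventionally reared larvae enter the comparison. The comparison asks whether loss of *il26* alters these hormone genes in a gut without microbes.

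Enteroendocrine cells are scattered single cells of the gut epithelium that sense nutrients and release peptide hormones into blood and onto nearby nerves. Islet cells lie in the pancreas, next to the gut tube, and release insulin, glucagon, somatostatin and ghrelin to control blood glucose and feeding. Both cell types cut their hormones out of longer precursors in dense granules. Zebrafish keep duplicate copies of many of these genes, so that several hormones are encoded by an a and a b gene.

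Total counts were between 7528412 and 38143258 in *il26*-/- GF libraries and between 21188195 and 29399034 in WT GF libraries. Levels are given as CPM, the count of a gene as a share of the library's effective total after TMM scaling. They are not corrected for gene length, so levels of different genes are not compared. The limit set by 3 counts lay at 0.0765 to 0.369 CPM for *il26*-/- GF libraries and at 0.0978 to 0.152 CPM for WT GF libraries, by counting error alone. No library had a count of *il26* (0 counts in each), so the genotypes rest on the labels. As background, the enterocyte markers *vil1*, *cldn15la* and *fabp1b.1* were abundant in every library. Of the 15 enterocyte markers listed, *fabp2* and *alpi.1* were low, at 0.485 to 0.738 and 1.19 to 2.81 CPM in *il26*-/- GF. In WT GF they had 0.587 to 0.839 and 0.203 to 1.33 CPM. The summed level of the 15 markers was 75909 to 82110 CPM in *il26*-/- GF and 75450 to 95064 CPM in WT GF. Its largest parts were *apobb.1* and *chia.2*, with *apobb.1* at 30976 to 35146 in *il26*-/- GF and 33074 to 41902.5 CPM in WT GF. *alpi.1* alone of the 15 had an unadjusted p under 0.05 in edgeR's quasi-likelihood test, and was higher in *il26*-/- GF (adjusted p = 0.869). The labels call the libraries biological replicates but do not say whether they came from separate clutches. The p-values therefore set the group difference against the spread between these pools.

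None of the 6 hormone genes tested was called different between *il26*-/- GF and WT GF in edgeR. In edgeR's quasi-likelihood test, 0 of the 6 passed an adjusted p of 0.05, where 0.00904% of all genes tested did, and 0 of the 6 had an unadjusted p under 0.05, where 5.32% of all genes tested did (338 higher and 251 lower, or 442 higher and 108 lower with libraries scaled by total counts only). DESeq2's Wald test also gave 0 of 6 at either threshold. In that test 52 of all genes passed the adjustment and 4.18% had an unadjusted p under 0.05. limma-voom gave 1 of 6 at an unadjusted p under 0.05, where 5.49% of all genes tested were called. By the sign of the log2 fold change, 3 of the 6 were higher in *il26*-/- GF and 3 lower, with a median of -0.016, against -0.0011 over all genes tested. The CPM ranges of the groups overlapped for all 6, where 9.64% of all genes tested had no overlap. The members differed in how much they varied within a group. *gcgb*, *sst2* and *ghrl* varied widely among the pools of each group and *gcga* among the WT GF pools, while *pyyb* varied little in either group and *penka* little among the *il26*-/- GF pools. In pooled guts, fewer cells of a type and less RNA per cell cannot be told apart.

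**Figure D1:**
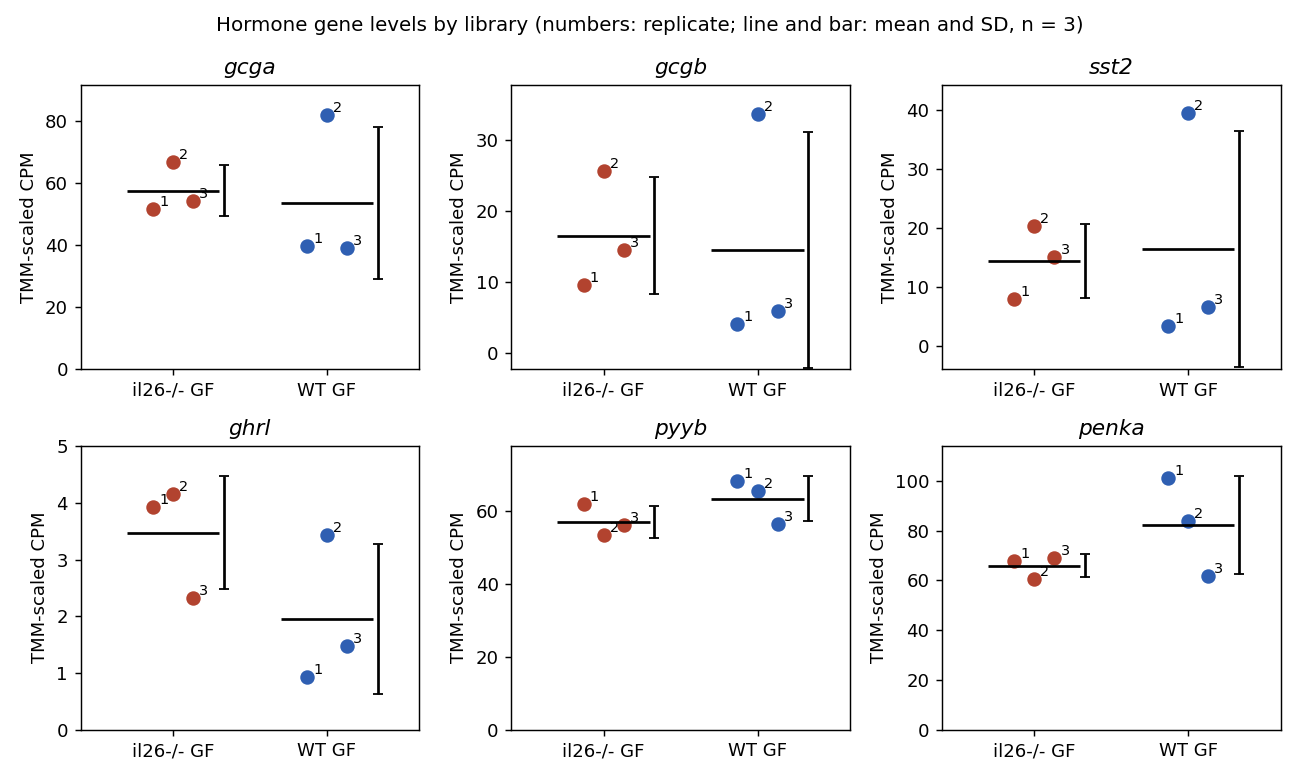
TMM-scaled CPM of the 6 hormone genes tested in each of the 3 il26-/- GF and 3 WT GF libraries, with one point per library numbered by replicate, and the mean and SD of each group (n = 3). WT GF replicate 2 stands above the other WT GF libraries for gcga, gcgb, sst2 and ghrl, for example at 39.4 CPM for sst2 against 3.31 and 6.56 CPM in WT GF replicates 1 and 3.

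The proglucagon gene *gcga* encodes glucagon, which raises blood glucose, and in other vertebrates the same precursor also yields the gut hormone GLP-1. Its level was 51.7, 67.0 and 54.4 CPM in *il26*-/- GF replicates 1, 2 and 3, against 39.7, 82.0 and 39.0 CPM in WT GF replicates 1, 2 and 3. The *il26*-/- GF libraries thus lay inside the span of the WT GF libraries, of which replicate 2 was the highest of all 6 and replicates 1 and 3 the lowest. The means were 57.7 ± 8.19 CPM in *il26*-/- GF and 53.6 ± 24.6 CPM in WT GF (SD, n = 3 each). The log2 fold change was 0.11 (standard error [SE] 0.29, 95% confidence interval [CI] -0.57 to 0.79, edgeR adjusted p = 1.00).

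Its paralog *gcgb* had 9.59, 25.6 and 14.5 CPM in *il26*-/- GF replicates 1, 2 and 3, and 4.15, 33.7 and 5.94 CPM in WT GF replicates 1, 2 and 3. These correspond to 78, 1005 and 231 counts in *il26*-/- GF and to 84, 666 and 182 counts in WT GF, so counting error is small beside the difference between libraries. Again WT GF replicate 2 was the highest library and WT GF replicates 1 and 3 the lowest. The log2 fold change of *gcgb* was 0.23 with an SE of 0.76, and its 95% CI of -1.54 to 2.01 spans changes in both directions. The deposited labels and the paper's methods do not say how reads shared by both proglucagon genes were counted.

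Somatostatin, which holds back the release of other hormones, is made by delta cells of the islet and by endocrine cells of the gut. The somatostatin gene *sst2* had 7.87, 20.2 and 15.0 CPM in *il26*-/- GF replicates 1, 2 and 3, against 3.31, 39.4 and 6.56 CPM in WT GF replicates 1, 2 and 3. The WT GF libraries held both the lowest and the highest value. Its log2 fold change was -0.14 (SE 0.82, 95% CI -2.07 to 1.78, edgeR adjusted p = 1.00), the widest interval of the 6 members.

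Ghrelin, encoded by *ghrl*, is the hunger hormone of the stomach in mammals and is also made by islet cells. The gene was the least counted of the 6, with 32, 163 and 37 counts in *il26*-/- GF and 19, 68 and 45 counts in WT GF. This gave 3.94, 4.16 and 2.33 CPM in *il26*-/- GF replicates 1, 2 and 3, against 0.938, 3.44 and 1.47 CPM in WT GF replicates 1, 2 and 3. The 2 highest libraries were *il26*-/- GF, and WT GF replicate 2 lay above *il26*-/- GF replicate 3. The log2 fold change of 0.85 was the farthest from 0 among the members (SE 0.46, 95% CI -0.23 to 1.94, edgeR adjusted p = 1.00). It was the gene that limma-voom called higher at an unadjusted p under 0.05, with a log2 fold change of 1.08 (limma adjusted p = 0.849), where 3.28% of all genes tested were called higher.

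Peptide YY, encoded by *pyyb*, is released by enteroendocrine cells after a meal and slows gut transit. Its level was 61.7, 53.2 and 56.0 CPM in *il26*-/- GF replicates 1, 2 and 3, against 68.2, 65.4 and 56.4 CPM in WT GF replicates 1, 2 and 3. *pyyb* was the most evenly expressed member, and *il26*-/- GF replicate 1 lay above WT GF replicate 3. Its log2 fold change was -0.15 with an SE of 0.11, and the 95% CI of -0.41 to 0.098 was the narrowest of the members.

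Proenkephalin, encoded by *penka*, is the precursor of the opioid peptides called enkephalins, which neurons and endocrine cells both make. It had 67.9, 60.6 and 69.0 CPM in *il26*-/- GF replicates 1, 2 and 3, against 101.0, 83.8 and 61.6 CPM in WT GF replicates 1, 2 and 3. The *il26*-/- GF libraries were close together, and WT GF replicate 3 lay among them. The log2 fold change was -0.32 (SE 0.18, 95% CI -0.73 to 0.090, edgeR adjusted p = 1.00). Without WT GF replicate 3 it was -0.49 and passed an unadjusted p of 0.05 in the same test, where 4.34% of all genes tested were called lower. The gene did not pass the adjustment in that fit or in any other that left out 1 library (lowest edgeR adjusted p = 0.294). The summed level of 16 enteric neuron and glia markers was 192 to 231 CPM in *il26*-/- GF and 219 to 240 CPM in WT GF. Of 15 of these markers tested, 13 were lower in *il26*-/- GF by sign, where 5570 of the 11062 genes tested were. *phox2bb* and *stmn2a*, 2 of the 15, were lower without overlap between the groups, where 4.83% of all genes tested were. Among the 15 *phox2bb* alone had an unadjusted p under 0.05 in edgeR, where 2.27% of all genes tested were called lower. DESeq2 called 0 of the 15, where 1.73% of all genes tested were called lower. limma-voom called *phox2bb* and *stmn2a* lower, where 2.21% of all genes tested were. The part of enteric neurons in the levels of *penka* was not tested.

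The remaining members were at the floor. The insulin gene *ins*, the hormone of beta cells, had 1 count in all, in *il26*-/- GF replicate 2, and 0 counts in the other 5 libraries. The insulin-like peptide gene *insl5a*, an enteroendocrine hormone, likewise had 1 count, in the same library. A count of 1 in that library is 0.0255 CPM with an exact Poisson interval of 0.000646 to 0.142 CPM, and the upper bound of the same interval for 0 counts was at most 0.454 CPM in *il26*-/- GF and 0.187 CPM in WT GF, for counting error. The second insulin gene *insb* was almost as low, with 0, 2 and 0 counts in *il26*-/- GF and 0, 3 and 2 counts in WT GF. The paralog *insl5b*, chosen after its values were seen, was measured at 2.58, 2.09 and 1.63 CPM in *il26*-/- GF and at 2.42, 2.28 and 2.15 CPM in WT GF. Low counts in this table did not always go with a missing tissue. The muscle genes *tnnc2*, *ckma*, *mylpfa* and *pvalb2* had 0, 1, 2 and 3 counts in all 6 libraries together, while the muscle actin gene *actc1b* had 757 to 1131 CPM in *il26*-/- GF and 490 to 830 CPM in WT GF. The endocrine genes *mnx1*, *scg3*, *scg5* and *scgn* were at 0 counts in every library. How the reads were counted at these genes was not tested, and *ins* and *insl5a* had too few counts to detect a difference.

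**Figure D2:**
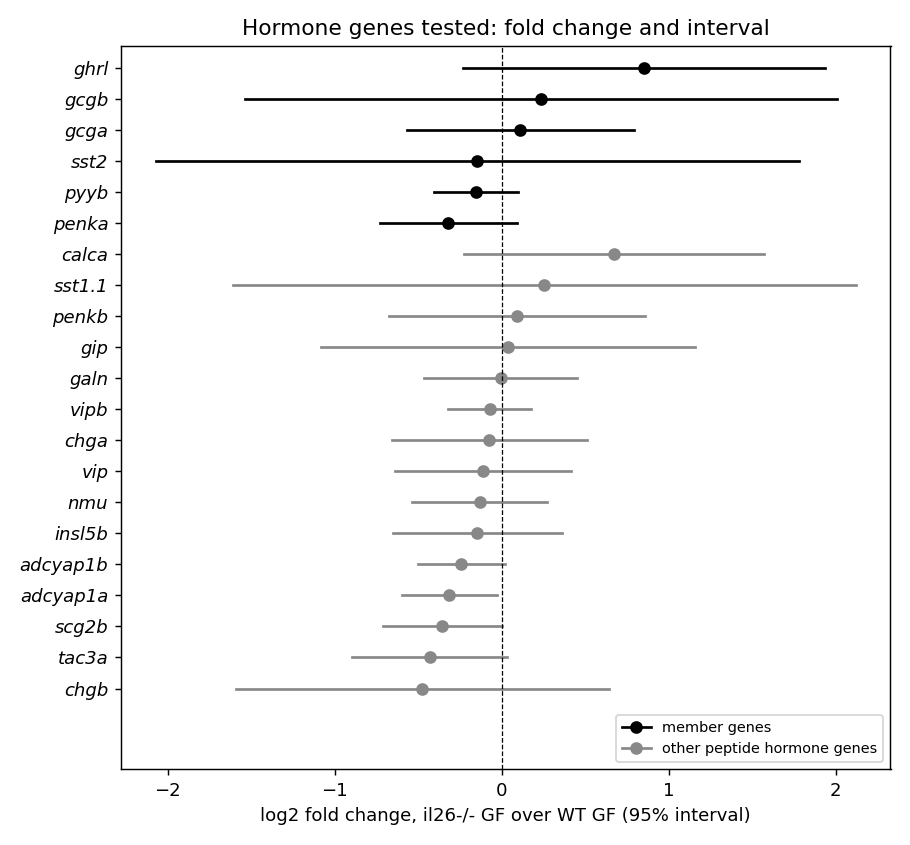
Log2 fold change of il26-/- GF over WT GF with its 95% confidence interval for 6 members and 15 other peptide hormone genes, as fitted in edgeR. Every member interval includes 0, and those of gcgb and sst2 are wider than those of pyyb and penka.

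The spread between pools of one group was described for each member by the ratio of its highest to its lowest CPM. For *sst2* this ratio was 2.57 among *il26*-/- GF libraries and 11.9 among WT GF libraries, and for *gcgb* it was 2.67 and 8.14 in the same order. Of all genes tested, 4.02% had a larger ratio than *sst2* in *il26*-/- GF and 0.434% had a larger ratio in WT GF. For *ghrl* the ratio was 1.79 in *il26*-/- GF and 3.67 in WT GF, and for *gcga* it was 1.30 and 2.10 in the same order. *pyyb*, at 1.16 in *il26*-/- GF and 1.21 in WT GF, was below the medians over all genes tested of 1.27 in *il26*-/- GF and 1.25 in WT GF. *penka*, at 1.14 in *il26*-/- GF and 1.64 in WT GF, was below the first of these medians and above the second.

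The glucagon and somatostatin members ranked the libraries alike, and *ghrl* did not. *gcgb* and *sst2* gave the same order, from WT GF replicate 2 as the highest through *il26*-/- GF replicates 2, 3 and 1 to WT GF replicates 3 and 1, an order shared by 16 of the 11062 genes tested with both included. *gcga* differed from it by an exchange of the 2 lowest libraries, and *ghrl* had *il26*-/- GF replicates 2 and 1 above WT GF replicate 2. Within a library the counts of *gcgb* and *sst2* kept close to one ratio. *gcgb* over *sst2* was 1.22, 1.27 and 0.971 in *il26*-/- GF replicates 1, 2 and 3 and 1.25, 0.855 and 0.905 in WT GF replicates 1, 2 and 3, a span of 1.48-fold beside the 11.9-fold span of *sst2* itself. *gcga* over *gcgb* was less even, at 5.38, 2.61 and 3.74 in *il26*-/- GF and 9.58, 2.43 and 6.57 in WT GF. Its lowest ratios fell in the libraries with most *gcgb*, which is the divisor and varied more than *gcga*. Some other pairs were also less even than *gcgb* over *sst2*. The ratio of the second somatostatin gene *sst1.1* over *sst2* spanned 2.43-fold, *gip* over *sst2* 2.94-fold and *ghrl* over *gcgb* 4.02-fold. *pyyb* and *penka* had WT GF replicate 1 as their highest library, the one in which *gcgb* and *sst2* were lowest. *penka* over *pyyb* stayed between 1.09 and 1.48 over the 6 libraries, a span of 1.36-fold, more even than *gcgb* over *sst2*. These ratios are of counts without length correction and describe how libraries differ, not the relative abundance of the transcripts.

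**Figure D3:**
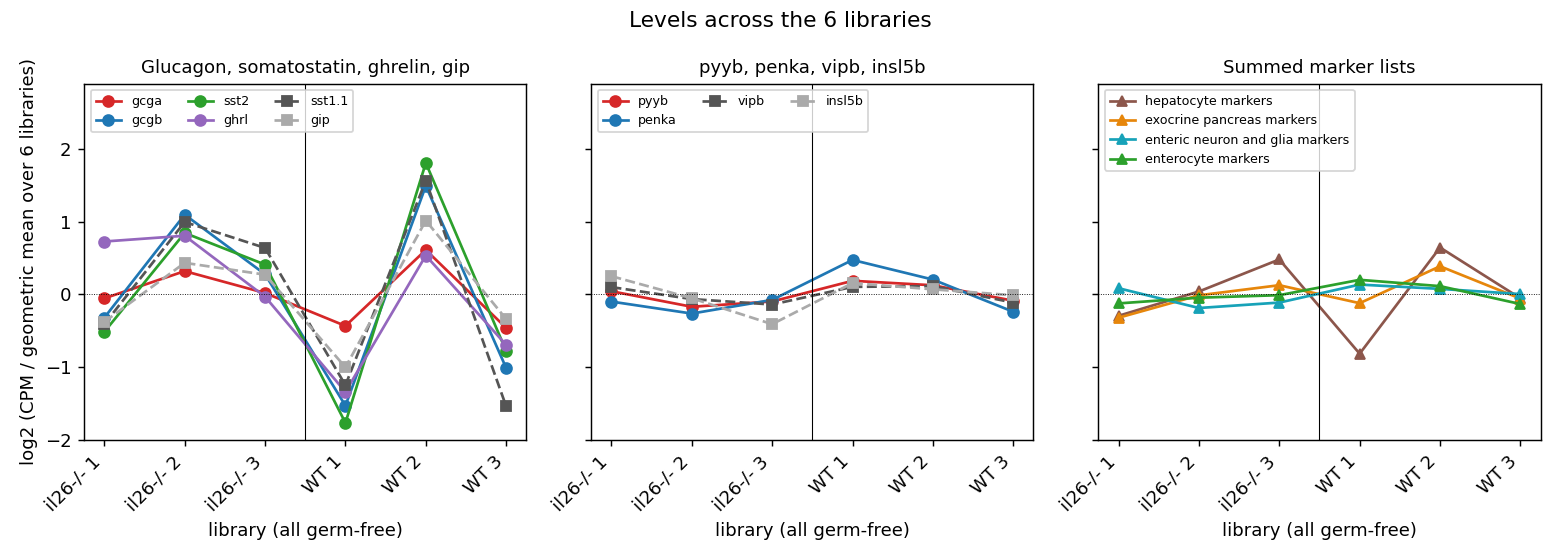
Log2 of the CPM over the geometric mean of the 6 libraries, by library, for glucagon, somatostatin, ghrelin and gip genes (left), for pyyb, penka, vipb and insl5b (middle) and for the summed level of 4 marker lists (right), where lines only join the points of one gene or list. The left group peaks in WT GF replicate 2, except for ghrl, and is lowest in WT GF replicate 1 or 3, while the middle group stays close to 0.

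Markers of organs that touch the gut also differed between these libraries. The 15 hepatocyte markers summed to 18983, 23940 and 32494 CPM in *il26*-/- GF replicates 1, 2 and 3 and to 13227, 36413 and 22434 CPM in WT GF replicates 1, 2 and 3. For this sum WT GF replicate 2 was again the highest and WT GF replicate 1 the lowest. Its largest parts were *apoa1b* and *apoa2*, at 16800 and 8845 CPM in WT GF replicate 2. Single markers differed in their highest library. *tfa* peaked in WT GF replicate 2, at 3180 CPM, and *fabp10a* in *il26*-/- GF replicate 3, at 1396 CPM. The 22 exocrine pancreas markers in the table, which include the trypsin genes *prss1* and *prss59.1*, summed to 44555, 55173 and 60752 CPM in *il26*-/- GF and to 51187, 72778 and 53476 CPM in WT GF. For neither list did any gene pass an unadjusted p of 0.05 between the groups (0 of 15 and 0 of 20 tested in edgeR, DESeq2 and limma-voom, with median log2 fold changes of 0.087 and -0.14). Of the exocrine markers 1 had 0 counts in every library and *ctrb1* was near 0 with 50 counts in all, and no hepatocyte marker was at 0. The exocrine sum spanned less than the *sst2* level, with its highest library at WT GF replicate 2 too. Of 16 skeletal muscle markers tested, 7 were higher in *il26*-/- GF at an unadjusted p under 0.05 in edgeR, where 3.06% of all genes tested were. No overlap between the groups was seen for 6 of the 16, all higher, where 4.81% of all genes tested were higher without overlap. DESeq2 called 8 of the 16 higher, where 2.45% of all genes tested were called higher. With 3 of the 16 DESeq2 passed the adjustment, where 52 of all genes did, and edgeR gave 0 of the 16 past it. The muscle markers summed to 2444, 4048 and 2727 CPM in *il26*-/- GF and to 1587, 1416 and 3187 CPM in WT GF. For this sum WT GF replicate 2 was the lowest library, unlike for the liver and exocrine sums. The part of liver, pancreas or muscle tissue in the hormone levels was not tested.

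Leaving out WT GF replicate 2 moved *gcga*, *gcgb*, *sst2* and *ghrl* more than leaving out any other library. Without it, 4 of the 6 members tested had an unadjusted p under 0.05, all higher in *il26*-/- GF, where 3.26% of all genes tested were called higher in that fit. The log2 fold changes were then 0.56 for *gcga*, 1.75 for *gcgb*, 1.57 for *sst2* and 1.51 for *ghrl*, and of the 6 members only *sst2* changed sign. WT GF replicates 1 and 3 were the lowest libraries for these 4 genes. Without WT GF replicate 2 the *il26*-/- GF values therefore lay above both remaining WT GF values, where 8.41% of all genes tested did. This restates the order of the libraries and is no further result. The adjusted p-values of these 4 genes from edgeR in that fit were between 0.546 and 0.702, so 0 of the 6 passed. *pyyb* and *penka* stayed at -0.13 and -0.30. The same fit gave 4 of 15 hepatocyte markers higher at an unadjusted p under 0.05 with a median log2 fold change of 0.63, and 0 of 20 exocrine pancreas markers with a median of 0.047. It also gave 6 of 16 skeletal muscle markers higher and 1 lower, with a median of 0.35. Of 22 endocrine transcription factor genes 3 were higher and 0 lower. Of 15 enterocyte markers 0 were higher and 0 lower. Of 15 enteric neuron and glia markers 0 were higher and 1 lower, where 1.67% of all genes tested were called lower. Among other endocrine lists, 2 of 16 other peptide hormone genes and 2 of 10 nutrient sensing genes were higher. Of prohormone processing and granule genes 1 of 12 was higher, and of hormone receptor genes 0 of 10 were. None of these endocrine lists had a gene called lower. With *il26*-/- GF replicate 2 left out instead, *gcga*, *gcgb* and *sst2* had log2 fold changes of -0.013, -0.25 and -0.49. Leaving out WT GF replicate 1 or 3 also made *gcga* and *gcgb* negative, so the sign of these genes depended on which pools were compared. *ghrl* kept a positive log2 fold change, between 0.54 and 1.51, and *pyyb* and *penka* a negative one in each of the 6 fits that left out 1 library.

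**Figure D4:**
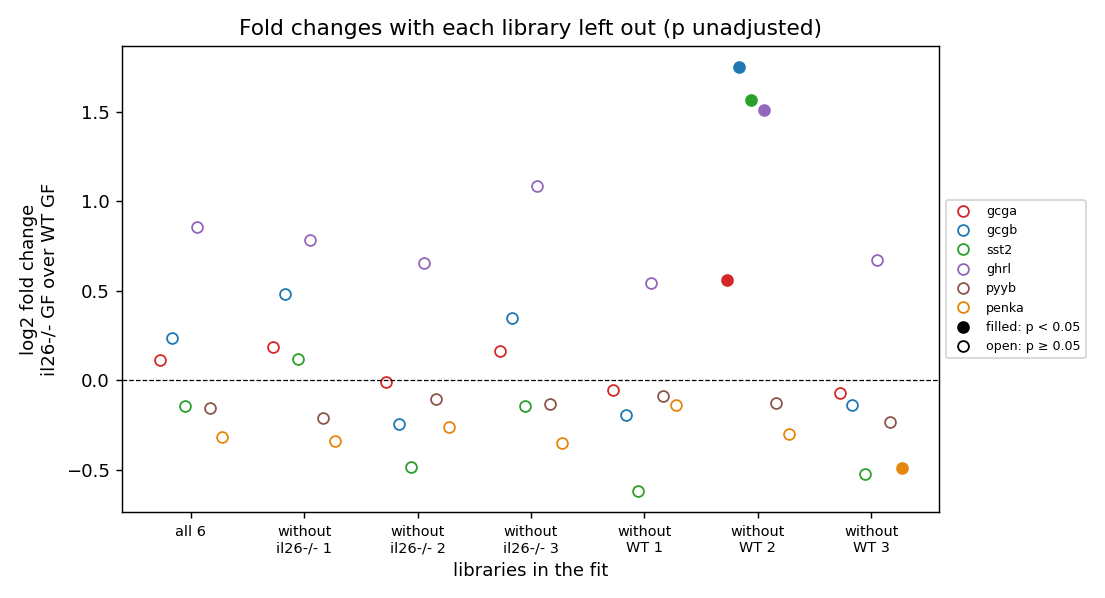
Log2 fold change of il26-/- GF over WT GF for the 6 members with all 6 libraries and with each library left out in turn, where filled points have an unadjusted p under 0.05 in edgeR's quasi-likelihood test. Without WT GF replicate 2, gcga, gcgb, sst2 and ghrl lie between 0.56 and 1.75 and are filled, and without WT GF replicate 3 penka is filled at -0.49.

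Other peptide hormone genes of the gut and pancreas were read from the same fit. Of 34 listed, 25 had a row, 15 were tested, 1 was lower in *il26*-/- GF at an unadjusted p under 0.05 (against 2.27% of all genes tested) and 0 were higher. None passed the adjustment. The median log2 fold change of the 15 was -0.11. By sign 4 of the 15 were higher and 11 lower, where 5570 of the 11062 genes tested were lower. Without overlap between the groups, 3 of the 15 were lower and 0 higher, where 4.83% and 4.81% of all genes tested were. The gene called was *adcyap1a*, one of the genes of the neuropeptide PACAP, with 42.2, 37.6 and 38.9 CPM in *il26*-/- GF and 55.4, 50.1 and 41.7 CPM in WT GF, with -0.31 as its log2 fold change (SE 0.12, edgeR adjusted p = 0.869). Its groups overlapped at WT GF replicate 3, which lay below *il26*-/- GF replicate 1. The 3 without overlap included the paralog *adcyap1b* and the secretogranin gene *scg2b*, a granule protein that is cut into peptides. They had log2 fold changes of -0.24 and -0.36, with unadjusted p-values of 0.064 and 0.051 from edgeR. The third, *tac3a*, chosen after its values were seen, had a log2 fold change of -0.43 and an unadjusted p of 0.065 from edgeR. The calcitonin gene *calca* had 1.48, 1.05 and 0.943 CPM in *il26*-/- GF against 1.09, 0.506 and 0.522 CPM in WT GF (log2 fold change 0.67, edgeR adjusted p = 1.00).

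The second somatostatin gene *sst1.1* resembled *sst2*. It had 9.72, 25.7 and 20.1 CPM in *il26*-/- GF replicates 1, 2 and 3 and 5.43, 38.2 and 4.44 CPM in WT GF replicates 1, 2 and 3, with the order of libraries of *gcga*. Its log2 fold change was 0.26 with all libraries and 1.95 without WT GF replicate 2 (edgeR adjusted p = 0.500). The incretin gene *gip*, which was chosen after its values were seen, had 10.6, 18.6 and 16.6 CPM in *il26*-/- GF and 6.86, 27.8 and 10.9 CPM in WT GF, again with WT GF replicate 2 as the highest library. In contrast *vipb*, a gene of the vasoactive intestinal peptide of enteric neurons that was also chosen after its values were seen, had 61.7, 55.1 and 52.3 CPM in *il26*-/- GF and 61.9, 62.3 and 53.2 CPM in WT GF, a highest-to-lowest ratio of 1.18 and 1.17 in the same order.

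Most genes that process prohormones and build secretory granules did not pass the test. Of 22 listed, 12 were tested, 2 were higher in *il26*-/- GF and 10 lower by sign, where 5570 of the 11062 genes tested were lower. Of the 12, 1 had an unadjusted p under 0.05 and was higher, where 3.06% of all genes tested were called higher. The prohormone convertase gene *pcsk2*, which cuts glucagon and somatostatin precursors, had a mean of 7.62 CPM in *il26*-/- GF and 7.53 CPM in WT GF. Its highest library was WT GF replicate 1, at 8.49 CPM, unlike the hormone genes that peaked in WT GF replicate 2. The convertase gene *pcsk1*, chosen after its values were seen, did peak in WT GF replicate 2, at 6.48 CPM. The gene called was *rab3da*, a small GTPase of secretory granules, with 6.64, 7.73 and 5.85 CPM in *il26*-/- GF and 4.44, 4.66 and 4.86 CPM in WT GF, without overlap between the groups. Its log2 fold change was 0.54 (SE 0.15, edgeR adjusted p = 0.596). The synaptic vesicle gene *vamp2* and the membrane fusion gene *snap25b* had log2 fold changes of -0.34 and -0.66, with unadjusted p-values of 0.081 and 0.11 from edgeR. The groups did not overlap for *vamp2* and overlapped for *snap25b*. Without overlap, 1 of the 12 was thus higher and 1 lower, where 4.81% and 4.83% of all genes tested were.

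Of 33 transcription factor genes of endocrine cells, 21 were tested, and 2 were higher in *il26*-/- GF at an unadjusted p under 0.05 and 0 lower, where 3.06% of all genes tested were called higher. Neither passed the adjustment. DESeq2 called 2 of the 21 higher, *pdx1* and *nkx6.2* but not *nkx6.1*, where 2.45% of all genes tested were called higher. limma-voom called 4, *pdx1*, *nkx6.1*, *nkx6.2* and *foxa2*, all higher, where 3.28% of all genes tested were. Of the 21, 4 were higher without overlap between the groups and 0 lower, where 4.81% of all genes tested were higher without overlap. *pdx1*, which is required for the pancreas and is also expressed in the anterior gut, had 8.73, 10.9 and 10.9 CPM in *il26*-/- GF and 6.17, 8.51 and 5.74 CPM in WT GF. All *il26*-/- GF values lay above all WT GF values, with a log2 fold change of 0.60 (SE 0.18, edgeR adjusted p = 0.674). *nkx6.1*, a regulator of pancreatic progenitors, had 1.23, 0.970 and 1.26 CPM in *il26*-/- GF and 0.790, 0.658 and 0.620 CPM in WT GF, also without overlap, and a log2 fold change of 0.71 (SE 0.27, edgeR adjusted p = 0.869). The related gene *nkx6.2*, chosen after its values were seen, had 9.10, 10.3 and 4.53 CPM in *il26*-/- GF and 3.70, 6.18 and 1.30 CPM in WT GF, with overlapping groups. The factors *mafba* and *foxa2* had log2 fold changes of 0.25 and 0.41 without overlap and unadjusted p-values of 0.052 and 0.061 from edgeR. *mafa* and *sox4b* had log2 fold changes of -0.42 and -0.40 with overlapping groups. The median over the 21 genes was 0.056. For *arxa*, a factor of glucagon cells that was chosen after its values were seen, the level was 1.72, 1.56 and 1.63 CPM in *il26*-/- GF and 1.88, 1.62 and 1.53 CPM in WT GF. Further genes of this list were also chosen after their values were seen. *isl1*, *hhex* and *pax6b* were highest in WT GF replicate 2, at 3.24, 3.90 and 2.18 CPM. *isl1* had the library order of *gcgb* and *sst2*. In contrast *neurod1* was highest in *il26*-/- GF replicate 2, at 7.58 CPM, and *insm1b* in WT GF replicate 3, at 17.4 CPM.

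Among genes of hormone receptors, 18 of 32 listed had a row, 10 were tested and 0 had an unadjusted p under 0.05 in edgeR, DESeq2 or limma-voom, where 5.32%, 4.18% and 5.49% of all genes tested did in these tools, with a median log2 fold change of -0.12. The insulin receptor gene *insra*, chosen after its values were seen, had 72.1, 71.5 and 82.3 CPM in *il26*-/- GF and 79.9, 81.0 and 76.9 CPM in WT GF. The somatostatin receptor gene *sstr5* had 21.2, 18.4 and 19.7 CPM in *il26*-/- GF and 21.4, 20.6 and 24.6 CPM in WT GF (log2 fold change -0.17, SE 0.11). The neuropeptide Y receptor gene *npy8br* and the growth factor receptor gene *igf1ra* had log2 fold changes of 0.36 and 0.13. A row that the RefSeq synonyms give as the cholecystokinin receptor gene *cckbra* had 6, 18 and 1 counts in *il26*-/- GF and 15, 18 and 26 counts in WT GF, and its log2 fold change was -1.09 (SE 0.54, edgeR adjusted p = 0.995).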

How the data were processed

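The authors checked reads with FastQC (v0.11.8) and aligned them to danRer11. The deposited values are raw counts of reads for each gene symbol, not normalized. The aligner, counting tool, annotation and strand setting are not given in the sources used here. Library names in the labels tied each count column to its sample. Genes were kept by filterByExpr, libraries were scaled by TMM, and both groups were compared in edgeR (glmQLFit and glmQLFTest, no block), with p-values adjusted by Benjamini-Hochberg across the genes tested (edgeR 4.0.16, limma 3.58.1, DESeq2 1.42.0, R 4.3.3). The SE is the fold change over the root of its F statistic. The fit was tested on simulated data. Missing list symbols were looked up among RefSeq synonyms (GRCz12tu), which is another build, so no coordinates are given. Members and lists were chosen with earlier results of these data known. The genes named are every member and, from each other list of endocrine genes, those with an unadjusted p under 0.05 and up to 2 further genes in each direction with the smallest p. Marker lists of other cell types are given as counts, sums and examples. Alternatives were 3 other scalings, 2 other filters, DESeq2, limma-voom, a replicate block and each library left out.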

Additional observations from a re-analysis of the deposited data

How the results depend on the processing

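No member passed the adjustment under any of the 14 alternatives. At an unadjusted p under 0.05, limma-voom called 1 of 6 members, where 5.49% of all genes tested were called. With 1 library left out 0 to 4 members were called, where 3.95% to 10.2% of all genes were. The fit without WT GF replicate 3 called 1 member (10.2% of all genes), and that without WT GF replicate 2 called 4 (4.93% of all genes). All other alternatives called 0 members, where 3.95% to 7.12% of all genes were called. With limma-voom the log2 fold changes were 0.75 for *sst2*, 0.96 for *gcgb* and 1.098 for *sst1.1*, against -0.14, 0.23 and 0.26 in edgeR. Over the 6 fits that left out 1 library, log2 fold changes ranged from -0.074 to 0.56 for *gcga*, -0.25 to 1.75 for *gcgb*, -0.62 to 1.57 for *sst2*, -0.19 to 1.95 for *sst1.1* and -0.30 to 0.80 for *gip*. Other peptide hormone genes called at an unadjusted p under 0.05 were 0 of 15 with total counts only and 2 of 15 with limma-voom, against 1 of 15. Of all genes tested, 4.97%, 5.49% and 5.32% were called in these fits. Without a filter 2 of 24 were called, and 2 of 13 with at least 10 counts in every library, where 5.11% and 5.28% of all genes were. With 1 library left out 0 to 4 were called, where 3.95% to 10.2% of all genes were. The 4 were called without WT GF replicate 3, 3 lower and 1 higher of 15, where 10.2% of all genes were called. Over all genes, 4 passed the adjustment with upper quartile scaling, 2 with total counts only, 4 without a filter, 52 with DESeq2 and 0 to 3 with 1 library left out, against 1. At an unadjusted p, 441 to 1133 genes were called with 1 library left out, the most without WT GF replicate 3, against 589. *pdx1* and *rab3da* kept an unadjusted p under 0.05 in 14 of the 14 alternatives, *adcyap1a* in 9 and *nkx6.1* in 8, and none passed the adjustment. These genes were named for their p in the main fit, and the alternatives reuse the same libraries. Their counts of alternatives are therefore no further support. The cause of the shifts between the fits was not tested.

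Replicate numbers 1 to 3 recur in the 2 groups. Same-numbered libraries deviated from their group means with correlations of 0.18, 0.096 and 0.30 for replicates 1, 2 and 3. Pairs with different numbers had correlations from -0.32 to 0.17. Nothing says whether same-numbered libraries share anything. With the replicate number as a block, 15 of all genes passed the adjustment, 0 of 6 members and 3 other hormone genes had an unadjusted p under 0.05, where 7.12% of all genes tested did, and *sst2* had a log2 fold change of 0.34. The error of 3 pools per group limits *gcgb* and *sst2*. *ins* and *insl5a* had too few counts to be tested.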

Other observations

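Genes by which endocrine cells sense nutrients were also read from the fit over all genes. Of 17 listed, 12 had a row, 10 were tested, 5 were higher in *il26*-/- GF by sign and 5 lower, and 0 had an unadjusted p under 0.05 in edgeR's quasi-likelihood test, where 5.32% of all genes tested did. DESeq2's Wald test also called 0 of the 10. limma-voom called 1, *gck*, which was higher in *il26*-/- GF, where 3.28% of all genes tested were called higher. Glucokinase, encoded by *gck*, had 3.57, 5.79 and 3.90 CPM in *il26*-/- GF replicates 1, 2 and 3 and 2.57, 4.66 and 2.25 CPM in WT GF replicates 1, 2 and 3. The potassium channel subunit gene *abcc8* had 1.84, 2.42 and 3.02 CPM in *il26*-/- GF and 1.28, 2.38 and 1.70 CPM in WT GF. For both genes WT GF replicate 2 was the highest WT GF library. The glucose transporter gene *slc2a2* had a log2 fold change of -0.20, and the irritant receptor gene *trpa1b*, which marks a class of enteroendocrine cells in zebrafish, averaged 9.23 ± 1.51 CPM in *il26*-/- GF and 10.6 ± 0.494 CPM in WT GF (SD, n = 3 each).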
